A study of Mus musculus with 1012 samples.

Results

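The handling of fatty acids was followed through 10 genes, *Lpl*, *Cd36*, *Fabp4*, *Fabp5*, *Acsl1*, *Fasn*, *Scd1*, *Scd2*, *Plin2* and *Adipoq*, among the 30452 features of a table of read counts from 1012 single-cell libraries of mouse cells. The genes were given by name, as members of a pathway. Live-seq takes a biopsy of cytoplasm from a living cell with a hollow microfluidic probe, so that most cells survive. Whole-cell libraries were made from cells that were detached, sorted and lysed.

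The cells were in 5 states. ASPC_Pre cells were adipose stem and progenitor cells (ASPCs) in culture, isolated from the subcutaneous fat of female C57BL/6J mice 7 to 10 weeks old, and ASPC_Post cells were ASPCs after 2 days in an adipogenic cocktail of dexamethasone, IBMX, insulin and rosiglitazone. IBA cells were an immortalized line of brown preadipocytes, made from the interscapular brown fat of young male C57BL6/J mice and not differentiated here. RAW_Mock and RAW_LPS cells were RAW264.7 macrophages without and with lipopolysaccharide (LPS) for 4 to 5 h. Except for 11 RAW_LPS cells and 1 RAW_Mock cell of the wild-type line, all sampled by Live-seq in batch 5Reseq, the RAW cells were RAW-G9, a single clone that carries mCherry under the *Tnf* promoter and a relA-GFP fusion. Live-seq gave 61 ASPC_Pre, 37 ASPC_Post, 44 IBA and 50 RAW_LPS libraries, and the remainder of its 296 libraries were RAW_Mock. Whole cells gave 60 ASPC_Pre and 35 ASPC_Post libraries, and 15, 45 and 93 of IBA, 16, 46 and 95 of RAW_Mock and 15, 46 and 88 of RAW_LPS in batches 8_8, 9_1 and scRNA. A further 162 IBA cells were lysed whole, 1 h or 4 h after Live-seq sampling or, for those labelled 0 h, without sampling, as controls per the study.

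Fatty acids reach a cell from circulating lipoproteins, whose triglycerides lipoprotein lipase (*Lpl*) cuts, and enter with the help of the receptor CD36. Inside, fatty acid binding proteins (*Fabp4*, the adipocyte form, and *Fabp5*, the epidermal form, both also made by macrophages) carry them, and acyl-CoA synthetases such as ACSL1 activate them. Cells also build fatty acids with fatty acid synthase (*Fasn*) and desaturate them with stearoyl-CoA desaturases (*Scd1*, *Scd2*), and perilipin 2 (*Plin2*) coats the droplets in which they are stored. In adipocytes, PPARγ switches on many of these genes, and adiponectin (*Adipoq*) is a hormone of mature adipocytes.

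Because 4 of the 10 genes are paralogs whose reads could be confused, the most alike stretches of their coding sequences are shown, taken from the GENCODE transcripts of GRCm38 (mm10), 5′ to 3′ on the coding strand, with capitals for the bases that differ. The length is that of the 75-base read. The *Fabp4* stretch (coding bases 46 to 120, chr3:10206076-10208466, minus strand) and the *Fabp5* stretch (coding bases 52 to 126, chr3:10012691-10015017, plus strand) each span an intron and are identical at 53 of 75 positions.
Fabp4: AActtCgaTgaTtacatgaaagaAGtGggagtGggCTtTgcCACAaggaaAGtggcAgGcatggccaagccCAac
Fabp5: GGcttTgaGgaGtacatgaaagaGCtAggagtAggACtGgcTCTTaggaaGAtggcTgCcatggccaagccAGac
The *Scd1* stretch (coding bases 442 to 516, chr19:44401812-44401886, minus strand) and the *Scd2* stretch (coding bases 451 to 525, chr19:44299621-44299695, plus strand) each lie in 1 exon and do not differ at any position, so a read from this stretch could not be assigned to either gene.
Scd1: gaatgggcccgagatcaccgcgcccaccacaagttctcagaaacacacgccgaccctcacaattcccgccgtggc
Scd2: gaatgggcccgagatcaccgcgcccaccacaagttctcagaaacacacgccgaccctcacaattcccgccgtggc
Only uniquely mapped reads were counted. Of all 75-base words in the transcripts of each gene, those that also occur in transcripts of another gene made up 3.198% for *Scd1*, 1.803% for *Scd2*, 12.05% for *Fabp5* (shared with Gm14328 and Gm6166) and 2.24% or less for *Lpl*, *Plin2* and *Acsl1*, and there were none for *Fabp4*, *Cd36*, *Adipoq* and *Fasn*.

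The libraries held 64547 to 1603790 counts each for Live-seq, 41030 to 2671609 for whole cells and 38451 to 1077131 for the further IBA cells, with a median of 3942 genes per Live-seq library and 8434 per whole cell. Levels are given as CPM, counts scaled to a common library total, of the summed counts of all cells of a technique, state and batch, where a sum is of at least 3 cells, and n counts sums. RAW sums held 2327 to 29722 CPM of 8 macrophage markers and at most 5.63 CPM of 8 mesenchymal markers, whereas the IBA and ASPC sums held 2611 to 20062 CPM of the mesenchymal markers. The 6 markers of mature adipocytes (*Plin1*, *Cidec*, *Lep*, *Retn*, *Cfd* and *Lipe*) summed to 7.07 CPM in Live-seq and 7.26 CPM in whole cells of ASPC_Post, against 0.692 to 34.2 CPM in the ASPC_Pre sums, so these cells are called by their treatment and not adipocytes. Brown adipocyte markers (3 genes) reached at most 13.5 CPM and endothelial markers (5 genes) at most 5.59 CPM in any sum. One whole-cell library labelled IBA in batch 9_1 held 30240 CPM of macrophage markers and no count of the mesenchymal markers. Leaving it out changed no call of a lipid gene in any of the 9 comparisons made. It changed the levels of batch 9_1 of IBA by at most 7.47% for 9 of the 10 genes, and took *Cd36* from 0.826 CPM to 0.

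Per length, the leading genes depended on the cell type and in part on the technique. Read as CPM per kilobase of exon in whole cells, *Lpl* came first and *Fabp5* second in RAW_Mock (means of 169 and 143.6, n = 3) and in RAW_LPS (254 and 102.6). *Fabp5* and *Scd2* led in IBA (134 and 126, n = 3), and *Plin2*, *Scd2* and *Fabp5* in ASPC_Pre (115, 97.8 and 91.7, n = 2). In the 1 ASPC_Post sum *Fabp4* was at 638 and *Scd1* at 205, but without the cell with the most counts of each gene *Fabp4* was at 17.1 and *Scd1* and *Scd2* led at 164.4 and 164.5. In Live-seq *Fabp5* came before *Lpl* in RAW_Mock (268 and 80.8, n = 4) and led in ASPC_Pre (119, n = 2), *Scd2* led in IBA (178, n = 3), and *Fabp4* in the 1 ASPC_Post sum (356). In whole cells the leading genes of RAW_Mock, RAW_LPS, IBA and ASPC_Pre overlapped in their ranges over batches, so their order is not beyond the spread.

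**Figure D1:**
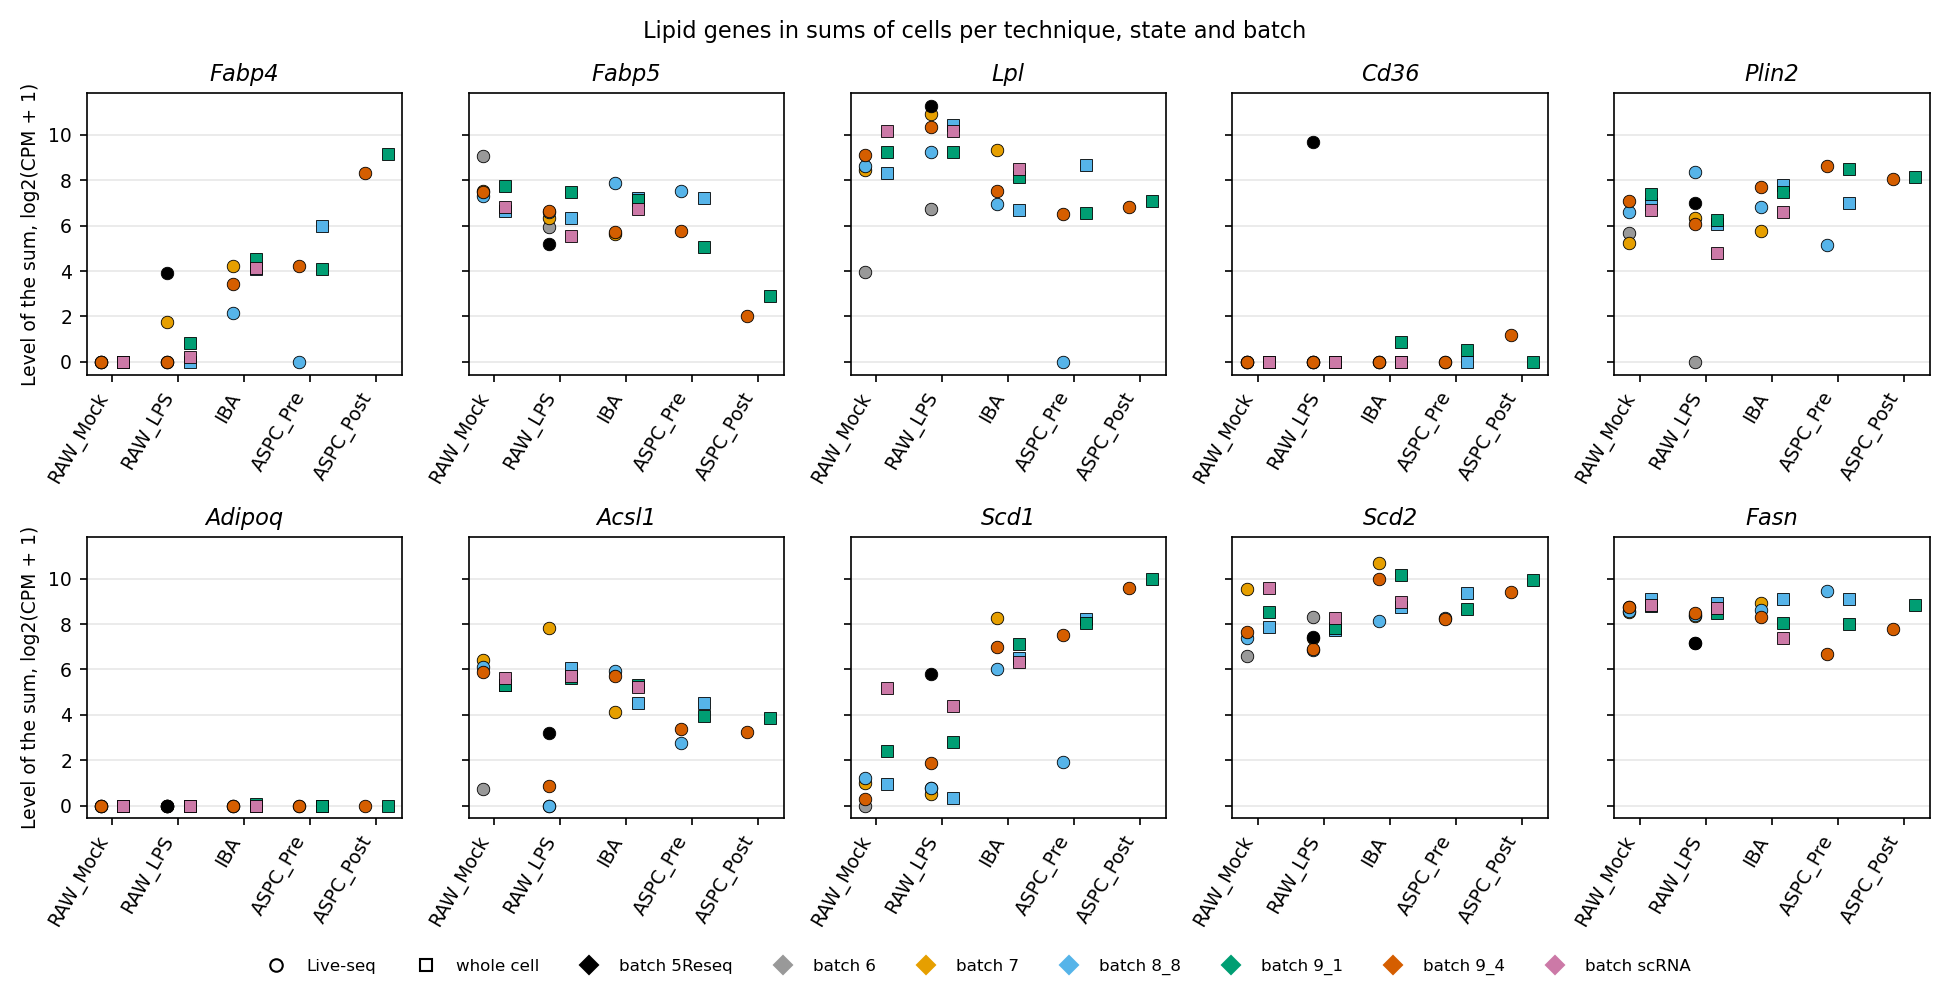
Level of each gene as log2(CPM + 1) in each sum of cells of 1 technique (circles, Live-seq; squares, whole cells), state (x axis) and batch (colour). Fabp4 and Scd1 are highest in ASPC_Post, where nearly all Fabp4 counts came from 1 cell of each technique. Fabp5 is lowest in ASPC_Post, Lpl is highest in RAW_LPS, Cd36 stands out in batch 5Reseq alone, and Adipoq lies at or near 0 in every sum.

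Of the lipid genes, 2 separated progenitors from macrophages. *Fabp4* stood at 62.01 and 15.99 CPM in the whole-cell sums of ASPC_Pre (batches 8_8 and 9_1), and its 644 counts came from 44 of 60 cells. None of the 16, 46 and 95 RAW_Mock whole cells of batches 8_8, 9_1 and scRNA held a count. Set against a floor of 3 counts over all of those cells, *Fabp4* was at least 485-fold higher in ASPC_Pre, and edgeR called it (adjusted p = 0.000487). The desaturase *Scd1* was at 296 and 261 CPM in ASPC_Pre and at 0.924, 4.27 and 35.05 CPM in RAW_Mock, so the groups did not overlap. Its log2 fold change was 6.34 (SE 1.07, adjusted p = 0.00171, edgeR). The RAW_Mock levels of *Scd1* themselves ranged widely between batches, from counts in 4 of 16 cells in batch 8_8 to 69 of 95 in the batch named scRNA.

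These were 2 of the 8 lipid genes tested. Beside them, 40.1% of all 13562 genes were called in this comparison (25.8% higher and 14.3% lower in ASPC_Pre). In this fit the lipid genes were thus not called more often than genes in general. *Cd36* and *Adipoq* were too rare to be tested. *Lpl*, at 411 and 94.2 CPM in ASPC_Pre and at 319, 612 and 1156 CPM in RAW_Mock, overlapped between the cell types (log2 fold change −0.94, 95% interval −2.58 to 0.70). *Acsl1* did not overlap, with 21.9 and 14.5 CPM in ASPC_Pre and 38.7 to 47.6 CPM in RAW_Mock, but missed the threshold (log2 fold change −0.91, adjusted p = 0.091), as did *Plin2* (0.76, adjusted p = 0.15), *Scd2* (0.83, adjusted p = 0.23), *Fabp5* (−0.63, adjusted p = 0.49) and *Fasn* (−0.26, adjusted p = 0.56). Without batch 8_8, 6 of the 8 genes were called, beside 5561 of all genes, against 5439 in the main fit. The comparison with genes in general thus depends on the batches used.

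In Live-seq the same 2 genes were furthest apart, and neither was called. *Fabp4* was at 17.7 CPM in batch 9_4 of ASPC_Pre and listed at 0 in its 18 cells of batch 8_8, and no RAW-G9 RAW_Mock cell held a count in any of the 4 batches, which gives at least 151.7-fold over the pooled floor. Its adjusted p was 0.21. *Scd1* was at 184 and 2.74 CPM in ASPC_Pre, against 0 to 1.33 CPM in RAW_Mock (log2 fold change 6.32, SE 1.86, adjusted p = 0.14). DESeq2 called *Scd1* here, beside 1437 genes in all. By edgeR, 0 of 8 lipid genes and 2.01% of 13462 genes (1.5% higher and 0.505% lower) were called. An unadjusted p under 0.05 was found for 2 of the 8, beside 13.3% of all genes. The ASPC_Pre cells of batch 8_8 were the shallower ones, with a median of 1636 genes against 6059 in batch 9_4, and besides *Fabp4* they had no count of *Lpl*. The part of depth in this was not tested.

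After induction of ASPCs *Fabp4* was higher in the sums of both techniques, and nearly all of its counts lay in 1 cell of each. *Fabp4* went from 17.7 to 319 CPM in Live-seq (batch 9_4, 43 and 37 cells) and from 15.99 to 572 CPM in whole cells (batch 9_1, 44 and 35 cells). Of the ASPC_Post counts, 95.7% and 97.5% came from a single cell, at 10114 CPM in Live-seq and 9495 CPM among the whole cells. The next highest cells were at 292 and 390 CPM. Without these 2 cells, *Fabp4* stood at 14.2 and 15.3 CPM, about the level before induction.

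Fewer cells held *Fabp4* at all after induction. It was detected in 46.5% of ASPC_Pre biopsies (95% exact binomial interval 31.2 to 62.3%) and 29.7% of ASPC_Post biopsies (15.9 to 46.98%), and in 72.7% (57.2 to 85.0%) and 40.0% (23.9 to 57.9%) of whole cells, and the intervals overlapped in both techniques. Sampling each cell down to 50000 counts gave 30.2% and 16.2% in Live-seq and 47.7% and 14.3% in whole cells, in the same order. These intervals hold the draw of cells within 1 batch alone, and cells of 1 batch are not replicates. Intervals on counts elsewhere hold counting error alone, and PCR copies of 1 molecule could not be told from separate molecules.

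The 2 cells highest in *Fabp4* stood out in neighbouring genes as well. *Plin2* was at 2829 and 2035 CPM, the highest of their groups, where the medians of the other cells were 124 and 129 CPM. *Scd1* was again highest in both, at 4805 and 4156 CPM against medians of 399 and 748 CPM. The first cell was also highest in *Lpl* (931 CPM), and the second ranked second (616 CPM). *Angptl4*, an inhibitor of lipoprotein lipase that PPARγ induces, was the second highest of the group in each (1574 and 1268 CPM). *Pparg* reached 74.7 and 100.9 CPM in these cells, while its median was 0 in the others. Among the biopsies this was rank 2, as 5 of the other 36 held a count, at up to 88.1 CPM. Among the whole cells it was rank 1, with counts in 9 of the other 34, at up to 18.4 CPM.

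Markers of mature adipocytes were absent or low in both cells, though *Plin1* and *Retn* were higher in the whole cell than in any other of its group. *Adipoq*, *Cd36*, *Cidec*, *Lep* and *Cfd* had no count in either cell, while *Plin1* had 0 counts in the Live-seq cell and 3 in the whole cell, and *Retn* 0 and 11. *Fasn* was at 220 and 357 CPM, ranks 13 and 20 within their groups. Macrophage markers were at 55.99 and 43.5 CPM and mesenchymal markers at 24833 and 20734 CPM. These cells were picked by their *Fabp4*, and their values are a description.

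**Figure D2:**
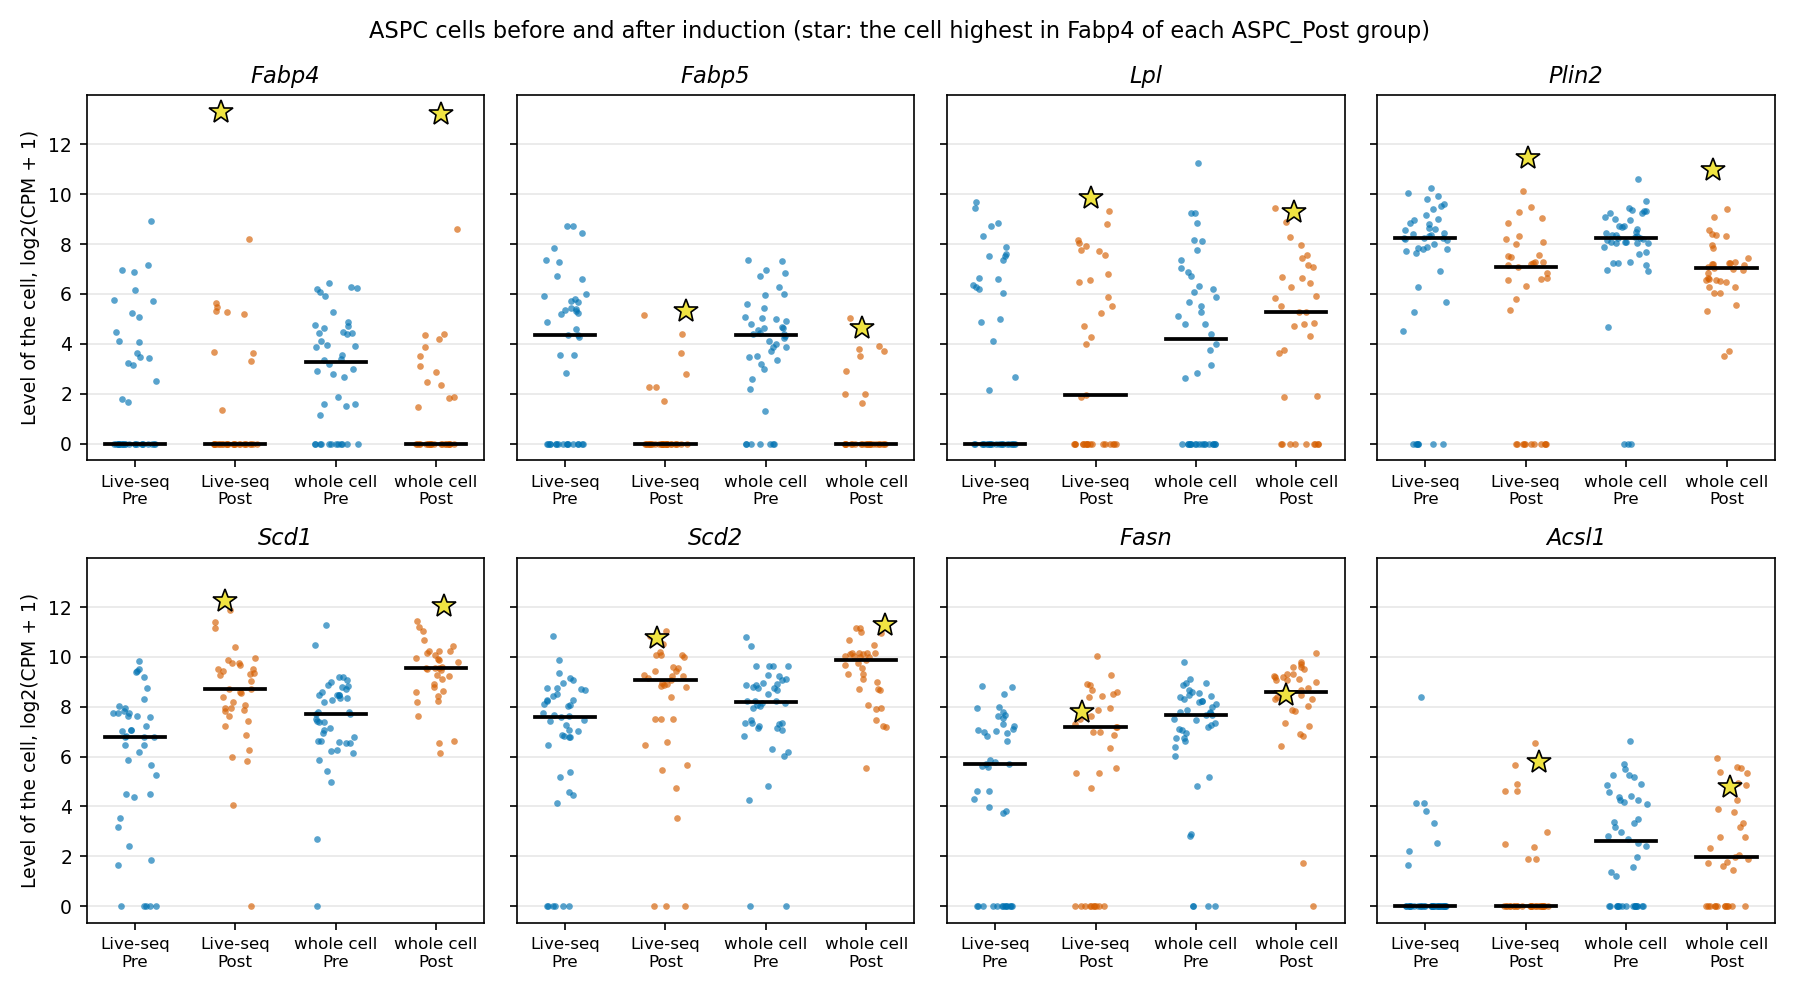
Level of 8 genes as log2(CPM + 1) in single ASPC cells of batch 9_4 (Live-seq) and batch 9_1 (whole cells), before (blue) and after (orange) induction, with black lines at the medians. The star is the ASPC_Post cell highest in Fabp4; it stands apart in Fabp4 and leads Plin2 and Scd1 in both techniques, while the medians of Scd1, Scd2 and Fasn move up and those of Fabp5 and Plin2 move down.

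The epidermal form *Fabp5* went the other way. It went in the sums from 54.1 to 3.003 CPM in Live-seq and from 32.2 to 6.39 CPM in whole cells, and from 27 of 43 to 8 of 37 biopsies and 37 of 44 to 12 of 35 whole cells. In both techniques the ASPC_Post sum lay below every ASPC_Pre sum. The edgeR fit gave a log2 fold change of −4.12 (SE 0.96, p = 0.00036) with an adjusted p of 0.24, and DESeq2 called it.

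The desaturases were higher after induction across most cells. *Scd1* went from 184 to 768 CPM in Live-seq and from 261 to 1001 CPM in whole cells, and its median over cells from 110 to 414 and from 210 to 753 CPM. Leaving out the cell with the most counts left 642 and 804 CPM. *Scd2* went from 298 to 672 and from 401 to 991 CPM, with *Fasn* at 101.6 and 222 CPM and at 251 and 451 CPM. The shift of *Scd1* and *Scd2* is thus present in both techniques, while *Fasn* after induction stayed within the range of the 2 ASPC_Pre batches, of which batch 8_8 was higher (710 and 545 CPM). None passed the test, with log2 fold changes of 2.09 (95% interval −0.55 to 4.72) for *Scd1*, 0.91 (−0.31 to 2.12) for *Scd2* and 0.35 (−0.85 to 1.56) for *Fasn*.

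Droplet coat, lipase and activation did not follow one direction. *Plin2* went from 398 to 263 CPM in Live-seq and from 358 to 286 CPM in whole cells, and its median over cells from 301 to 133 and from 304 to 130 CPM. In the fit its log2 fold change was 0.31 (95% interval −1.88 to 2.50), of the other sign than these pairs. The ASPC_Pre sums of batch 8_8 were at 34.7 and 128 CPM, and without that batch the fitted value was −0.35. *Lpl* was at 90.03 and 111.2 CPM in Live-seq and at 94.2 and 136 CPM in whole cells (0.25, −2.15 to 2.64), and *Acsl1* at 9.37 and 8.51 CPM and at 14.5 and 13.6 CPM (0.04, −2.89 to 2.97). *Adipoq* had no count in any of the 193 ASPC cells of both states, which allows a share of up to 1.55% of cells with a count, and *Cd36* had 31 counts in 2 of them.

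Of the 8 lipid genes tested over both techniques, 0 were called by edgeR and 1, *Fabp5*, by DESeq2, with 2 (*Fabp4* and *Fabp5*) at an unadjusted p under 0.05. Over all 13561 genes, 0 (0%) were called by edgeR and 125 by DESeq2, and 4.42% had an unadjusted p under 0.05. *Fabp4* had a log2 fold change of 4.61 (SE 1.45, adjusted p = 0.66), which became −0.17 without the 2 highest cells, an alternative chosen after seeing the data. With 1 batch of ASPC_Post in each technique, only 2 batches hold both states.

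For 9 ASPCs, the labels pair Live-seq samplings of the same cell before and after induction. The second samplings are part of the ASPC_Post group above. The study reports fewer such pairs, which it checked by a lentiviral GFP barcode carried by the cells. Which labelled pair lies outside its count is not given. *Scd1* was higher in the second biopsy in 7 of 9 cells (medians of 71.5 and 687 CPM) and *Scd2* in 6 of 9 (308 and 592 CPM). *Fasn* was lower in 7 of 9 (198 and 45.5 CPM) and so was *Plin2* (304 and 40.0 CPM). *Fabp5* was lower in 6 of 9, and *Fabp4* lower in 4, at 0 in both biopsies in 4 and higher in 1.

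That last cell was the Live-seq cell highest in *Fabp4*. Before induction it had no count of *Fabp4* or *Lpl*, 131 CPM of *Scd1* and 304 CPM of *Plin2*. Of the 9 first biopsies it had the highest *Scd2* (647 CPM), and its *Plin2* was the median. Another cell went from 110 to 0 CPM of *Scd1* and from 501 to 0 CPM of *Scd2* while its *Plin2* went from 337 to 1110 CPM. The order of sampling and the treatment cannot be told apart in these pairs, and no test was made on them.

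**Figure D3:**
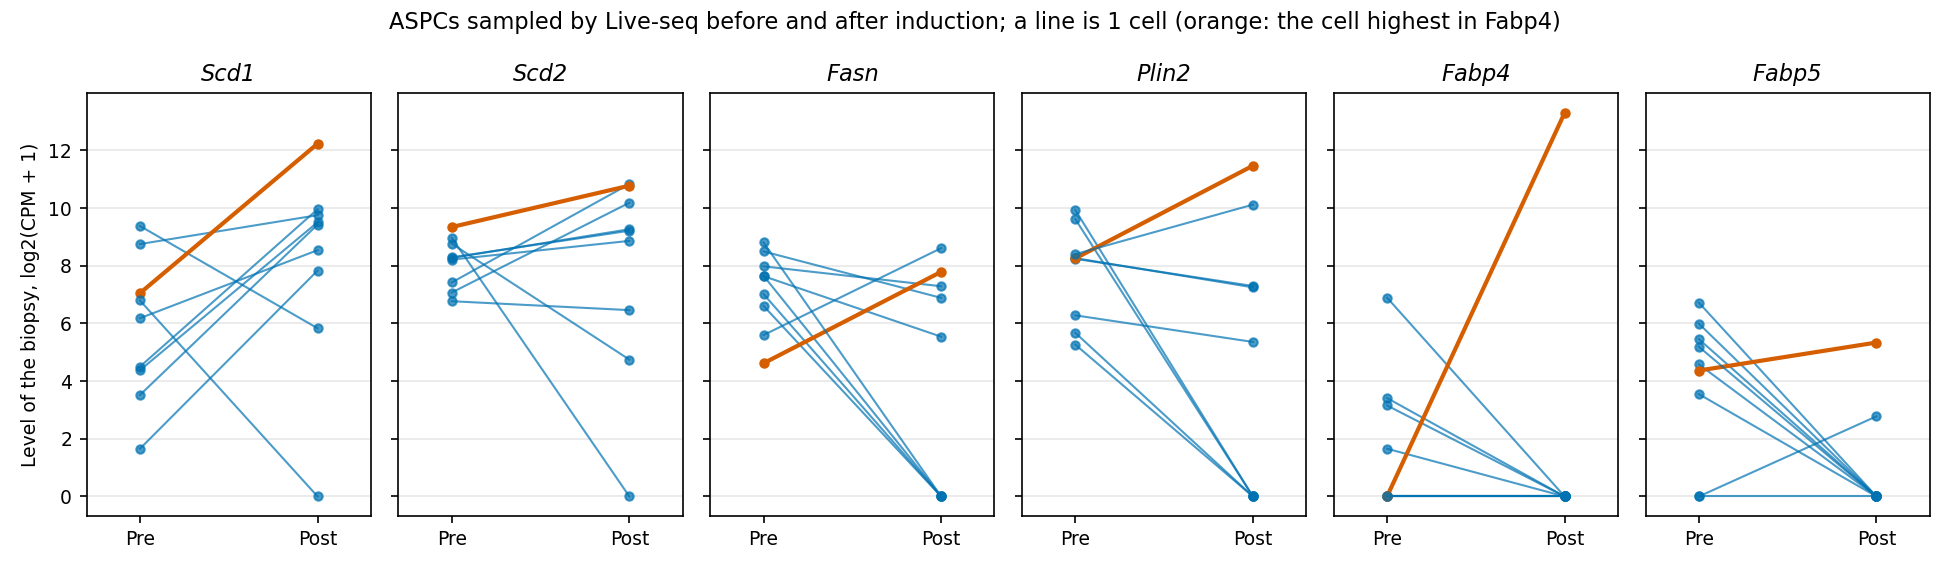
Levels of 6 genes as log2(CPM + 1) in 9 ASPCs labelled as sampled by Live-seq before (Pre) and after (Post) induction, with a line for each cell. Scd1 is higher in the second biopsy in 7 of 9 cells and Fasn and Plin2 are lower in 7 of 9; the orange cell is the one with 10114 CPM of Fabp4 after induction.

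No lipid gene was called between IBA cells and undifferentiated ASPCs in either technique. *Fabp4* was at 15.8, 22.1 and 16.5 CPM in the whole-cell sums of IBA and overlapped with ASPC_Pre. *Scd1*, at 90.7, 136 and 79.4 CPM, lay below both ASPC_Pre sums (log2 fold change −2.15, SE 0.85, p = 0.031) with an adjusted p of 0.13 by edgeR. In Live-seq *Scd1* was at 63.2, 125 and 308 CPM in IBA and overlapped with ASPC_Pre. Its fitted value there had the other sign (log2 fold change 1.02, 95% interval −2.92 to 4.97). *Acsl1* in whole cells lay at or above the ASPC_Pre sums, with 21.9, 38.7 and 35.9 CPM (0.55, 95% interval −0.33 to 1.44).

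*Scd2* and *Lpl* varied widely between IBA batches. *Scd2* was at 435, 1127 and 496 CPM in whole cells and 283, 1001 and 1628 CPM in Live-seq, and *Lpl* at 103.8, 285 and 356 CPM and at 121, 182 and 643 CPM. In whole cells 0 of 8 genes were called by edgeR and 0 by DESeq2, with 1 (*Scd1*) at an unadjusted p under 0.05. Beside this, edgeR called 10.9% of 13562 genes (3.75% higher and 7.19% lower in IBA) and DESeq2 2059, and 30.2% had an unadjusted p under 0.05. In Live-seq 0 were called by either tool and 0 had an unadjusted p under 0.05. Beside this, edgeR called 0.0223% of 13462 (0.00743% higher and 0.0149% lower) and DESeq2 274, and 3.94% had an unadjusted p under 0.05. This comparison shares the ASPC_Pre sums with those against RAW_Mock and against ASPC_Post.

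For IBA cells lysed after Live-seq sampling, 49 after 1 h and 43 after 4 h, the controls were 70 cells that were not sampled, all in batch 8_1, so that each group is 1 sum and no test was possible. Values are given in the order control, 1 h and 4 h. *Fabp4* was at 6.02, 19.6 and 22.5 CPM, while the share of cells with a count was 37.1%, 34.7% and 25.6%, and 38.8% of the counts at 4 h came from 1 cell. *Acsl1*, at 11.6, 31.1 and 25.1 CPM, was higher in both sampled groups, also without its top cell (10.5, 23.7 and 21.9 CPM).

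*Fasn*, at 400.0, 243 and 257 CPM, was lower in both sampled groups than in the controls, and so were *Fabp5* (232, 183 and 198 CPM) and *Scd2* (336, 246 and 306 CPM). *Plin2* was at 207, 230.06 and 151.7 CPM, *Scd1* at 59.99, 48.4 and 87.1 CPM and *Lpl* at 77.5, 57.7 and 83.2 CPM. These 3 genes were above the controls in 1 sampled group and below them in the other. The spread between cultures is not known here.

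In RAW cells *Lpl* was higher with LPS in most batches. In Live-seq, *Lpl* was higher with LPS in all 4 batches that held both states, at 562 and 1295 CPM in batch 9_4, 401 and 612 CPM in batch 8_8, 353 and 1929 CPM in batch 7, and 14.7 and 106.3 CPM in batch 6, without and with LPS. The wild-type LPS sum was higher still, at 2458 CPM. The groups overlapped, because batch 6 was low in both states, with 8 cells and 4 cells of which 1 held all *Lpl* counts. In batch 9_4, 53.5% of the LPS counts came from 1 cell.

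In whole cells only batch 8_8 had more *Lpl* with LPS (319 and 1382 CPM), and batches 9_1 (612 and 603 CPM) and scRNA (1156 and 1151 CPM) had nearly equal levels. The log2 fold change was 1.64 (95% interval −0.71 to 3.98) in Live-seq and 0.82 (−0.53 to 2.17) in whole cells. The difference of the 2 effects was 0.79 (−2.16 to 3.74).

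*Fabp5* was lower with LPS in the sums of both techniques, and *Plin2* in those of whole cells. *Fabp5* was lower in each of the 4 Live-seq batches (178 and 99.4, 155.2 and 97.2, 182 and 80.6, and 542 and 60.97 CPM in batches 9_4, 8_8, 7 and 6) and its groups did not overlap there, with the wild-type LPS sum at 36.01 CPM. In whole cells it was lower in all 3 batches, at 212 and 177, 100.7 and 80.9, and 112.45 and 45.5 CPM in batches 9_1, 8_8 and scRNA. The log2 fold changes, −1.39 (95% interval −3.17 to 0.39) and −0.43 (−1.66 to 0.79), did not pass.

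*Plin2* in whole cells was at 169 and 74.7, 125 and 66.8, and 103.04 and 26.6 CPM in batches 9_1, 8_8 and scRNA, lower with LPS in all 3 and without overlap. Its log2 fold change was −1.19 (SE 0.34, p = 0.0066) with an adjusted p of 0.15 by edgeR, and DESeq2 called it. In Live-seq *Plin2* was lower with LPS in 2 of 4 batches and higher in 2, and 67.8% of the counts of its highest LPS sum (332 CPM, batch 8_8) came from 1 cell.

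**Figure D4:**
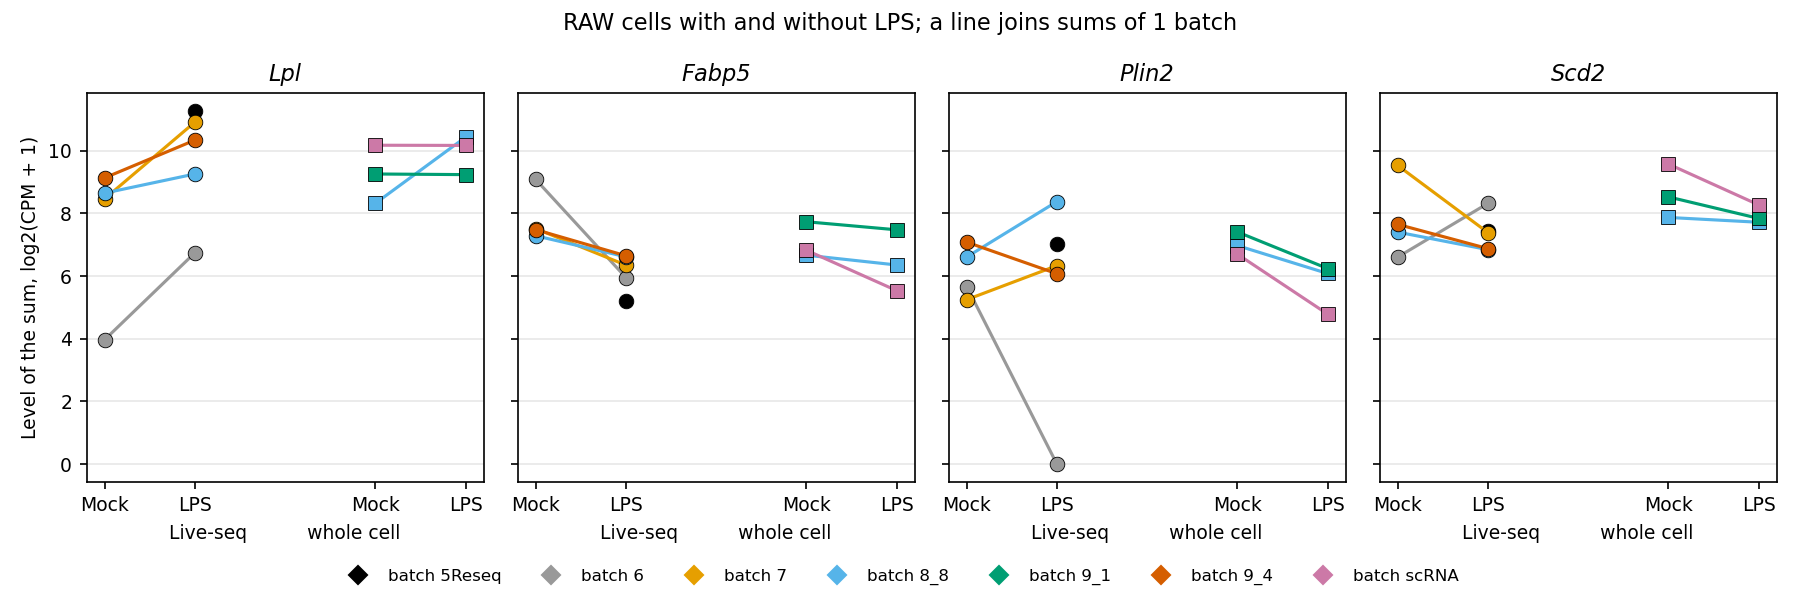
Levels of Lpl, Fabp5, Plin2 and Scd2 as log2(CPM + 1) in sums of RAW cells without (Mock) and with LPS, for Live-seq (circles) and whole cells (squares); lines join sums of 1 batch, and the black point is the wild-type sum. Lpl goes up in all 4 Live-seq batches and in 1 of 3 whole-cell batches, Fabp5 goes down in all 7, and Plin2 and Scd2 go down in all 3 whole-cell batches.

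Of the synthesis genes, *Scd2* was lower with LPS in all 3 whole-cell batches (368 and 228, 233 and 210, and 763 and 309 CPM in batches 9_1, 8_8 and scRNA) and in 3 of 4 Live-seq batches, and *Fasn* in all 7, by ratios of 0.806 to 0.913 in whole cells and 0.325 to 0.890 in Live-seq. The fitted log2 fold changes of *Fasn* were −0.05 (95% interval −0.68 to 0.58) in whole cells and −0.52 (−1.86 to 0.82) in Live-seq. For *Scd2* they were −0.62 (−1.59 to 0.36) and −0.43 (−1.73 to 0.88). In Live-seq batch 6, 80.8% of the *Fasn* counts without LPS came from 1 cell. *Acsl1* was higher with LPS in all 3 whole-cell batches, at 48.6 to 66.4 CPM against 38.7 to 47.6 CPM, which just did not overlap (log2 fold change 0.56, 95% interval −0.18 to 1.301). In Live-seq *Acsl1* went the other way in 3 of 4 batches and was higher with LPS in 1 (log2 fold change −3.00, 95% interval −9.35 to 3.34). *Scd1* reached at most 35.05 CPM in either state of the RAW-G9 clone.

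*Fabp4* had 52 counts in 5 RAW-G9 cells with LPS and none in 260 without. The latter allows a share of up to 1.15% of cells with a count. *Acsl1* in the Live-seq LPS sum of batch 7 was at 224 CPM with counts in 4 of 16 cells, where the other Live-seq LPS sums held 0 to 8.28 CPM.

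None of the 8 genes was called by edgeR in either technique, 2 (*Fabp4* and *Plin2*) were called by DESeq2 in whole cells and 0 in Live-seq, and 2 and 0 had an unadjusted p under 0.05. Beside this, edgeR called 1.28% of 13562 genes in whole cells (0.951% higher and 0.324% lower) and 0% of 13462 in Live-seq. DESeq2 called 715 genes in whole cells and 623 in Live-seq. Its call of *Fabp4* rests on few counts with LPS, 23 in 2 of 46 cells (batch 9_1) and 5 in 2 of 88 (batch scRNA). An unadjusted p under 0.05 by edgeR was found for 14.5% and 4% of all genes. The median log2 fold change of all genes in Live-seq was −0.48, so values there are to be read against that shift. Between the techniques the LPS effect was called different for 0 lipid genes (0% of 13561 genes by edgeR, 376 by DESeq2, 4.92% at an unadjusted p under 0.05), and 0 of the 8 passed in DESeq2 or at an unadjusted p under 0.05. The comparison shares the RAW_Mock sums with that against ASPC_Pre.

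In 3 RAW cells sampled by Live-seq before and after LPS (a further pair, labelled with the same sampling order on both biopsies, was left out), *Lpl* went from 0 to 3576 CPM, from 639 to 1149 CPM and from 844 to 8.57 CPM. It was thus higher in 2 and lower in 1. *Fabp5* went from 0 to 82.2 CPM, from 399 to 0 CPM and from 115 to 141 CPM in the same cells, and *Scd2* from 0 to 76.7 CPM, from 1017 to 0 CPM and from 53.6 to 133 CPM. Both were thus also higher in 2 and lower in 1. *Scd1*, *Fabp4*, *Cd36* and *Adipoq* had no count in either biopsy of any of the 3.

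**Figure D5:**
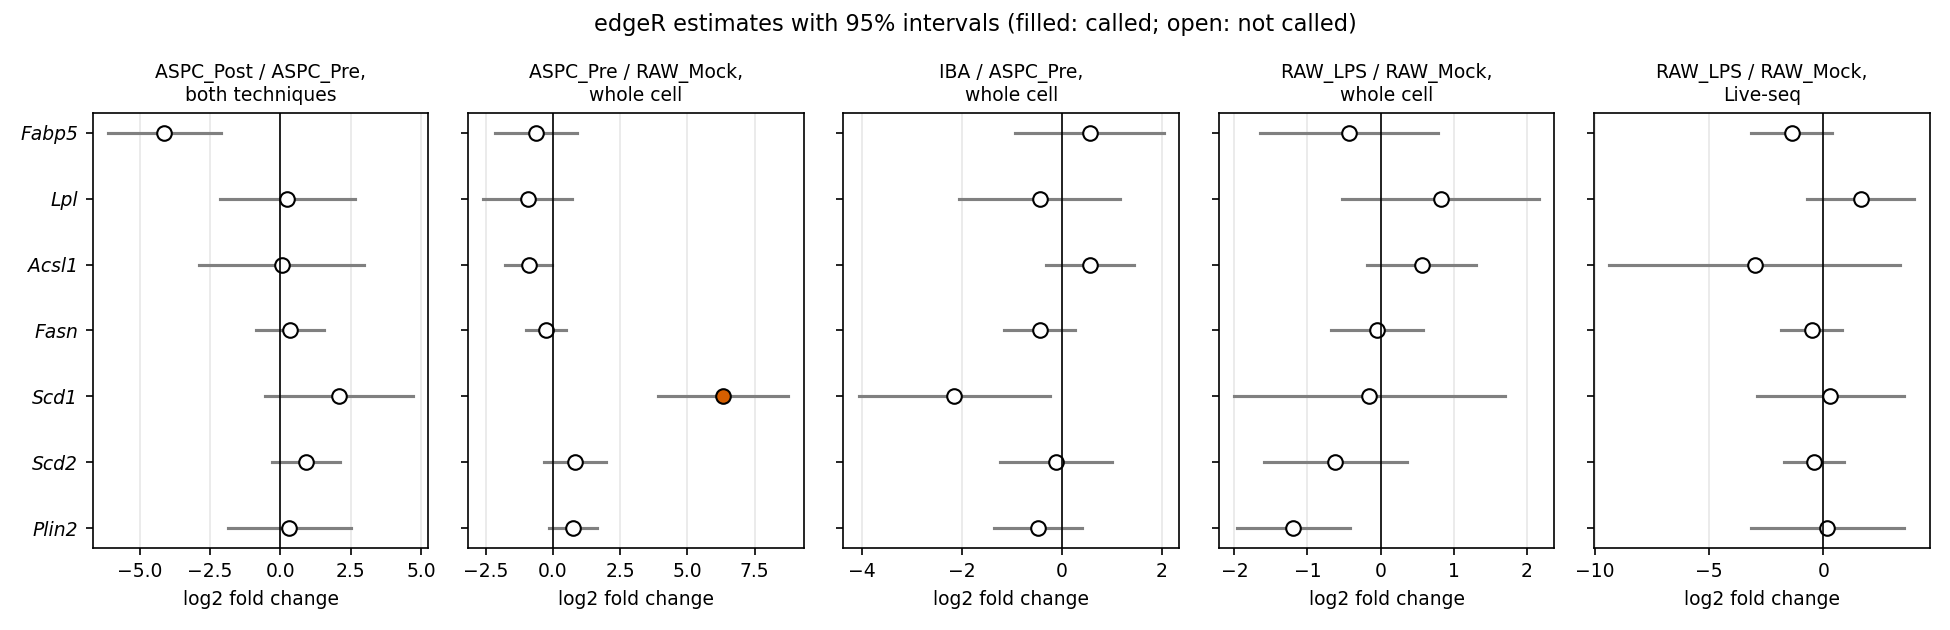
log2 fold changes fitted by edgeR (points) with 95% intervals (lines) for the 7 genes with counts in all groups, in 5 comparisons; filled points passed the threshold. Only Scd1 between ASPC_Pre and RAW_Mock is filled, and most intervals cross 0; Fabp4, at 0 in RAW_Mock, is left out.

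*Cd36* was found almost only in the wild-type RAW cells. It reached 831 CPM in the wild-type LPS sum, with counts in 8 of 11 cells, and had none in 448 RAW-G9 cells of both states and techniques, which allows a share of up to 0.670% of cells with a count. One cell gave 47.95% of the counts, and 487 CPM remained without it. Against the pooled floor of the 39 RAW-G9 LPS cells of Live-seq this was at least 4879-fold higher. The single wild-type RAW_Mock cell had no count of *Cd36* among 353171, which allows up to 10.4 CPM by counting error alone. This biopsy held only 985 genes, and also had no count of *Fabp5*, *Plin2*, *Acsl1*, *Scd2* or *Fasn*.

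The wild-type LPS sum stood apart from the Live-seq LPS sums of the clone in 2 more lipid genes. *Scd1* was at 55.3 CPM with counts in 6 of 11 cells, against 0.403 to 2.69 CPM in the 4 RAW-G9 LPS sums of Live-seq, and the wild-type RAW_Mock cell was at 36.8 CPM. RAW-G9 whole cells of batch scRNA also held *Scd1*, at 35.05 CPM without LPS (69 of 95 cells) and 19.9 CPM with LPS (39 of 88). *Fabp4* was at 13.9 CPM against 0 to 2.42 CPM in the RAW-G9 LPS sums of Live-seq, but 98.6% of its counts came from 1 cell. The line was sampled in batch 5Reseq only, so line and batch cannot be told apart, and no test was made.

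Outside these cells, *Cd36* had counts in 2 ASPCs and in 1 library labelled IBA. The latter, at 45.4 CPM, was the library with the macrophage markers. *Adipoq* had 2 counts in 1 of all 1012 libraries, an IBA cell.

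How far single cells set a level was counted for both techniques, whose sums differed in size, with 4 to 63 cells in Live-seq and 15 to 95 in whole cells. Leaving out the cell with the most counts lowered 57 of the 198 levels over the floor of 3 counts by more than 1.5-fold, and of these 47 were Live-seq levels and 10 were among the 93 whole-cell levels. For *Lpl*, 1 cell gave 70.5% of the counts of the Live-seq IBA sum in batch 9_4, 59.6% in batch 8_8 and 16.4% in batch 7, and 8.86% to 39.4% in the 3 whole-cell IBA sums. The part of cell number in this was not tested. Between techniques, none of the 8 genes was called by edgeR or DESeq2 or had an unadjusted p under 0.05, with log2 fold changes of −0.86 to 0.18. Beside this, edgeR called 0.501% of 13561 genes, all lower in Live-seq, and DESeq2 called 63. An unadjusted p under 0.05 by edgeR was found for 7.62% of genes, and the median of all genes was −0.34. Only batch 8_8 held both techniques, so this fit had no batch block, and technique and batch cannot be fully told apart in it.

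The wider pathway, in 6 lists of 72 genes of which 66 were tested, gave calls in whole cells alone. Between ASPC_Pre and RAW_Mock 20 genes were higher in ASPC_Pre and 3 lower (34.8%, beside 40.1% of all genes; median log2 fold change 0.49, beside 0.17). By list, 7 of 11 uptake and activation genes, 4 of 16 synthesis genes, 4 of 15 storage genes, 3 of 7 lipolysis genes, 3 of 11 oxidation genes and 2 of 6 regulators were called. *Mgll*, the monoglyceride lipase, was at 15.3 and 121 CPM in ASPC_Pre and listed at 0 in each RAW_Mock sum, and so was *Pparg* (12.2 and 66.9 CPM). *Vldlr*, a lipoprotein receptor, was at 11.9 and 17.8 CPM against at most 0.0291 CPM.

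The 3 genes higher in macrophages were the transporter *Slc27a1*, at 193 to 249 CPM in RAW_Mock and 3.65 to 9.50 CPM in ASPC_Pre, the lysosomal lipase *Lipa*, at 1007 to 1090 and 55.4 to 97.7 CPM, and the synthetase *Acsl5*, at 336 to 471 and 100.7 to 127.4 CPM. Without batch 9_1 the calls of *Acsl5* (adjusted p = 0.0501, edgeR) and *Mgll* (0.0610) were lost. Between IBA and ASPC_Pre 1 gene was higher in IBA and 7 lower (12.1%, beside 10.9%). *Slc27a1* was the higher one, at 16.8 to 56.9 CPM. *Mgll* (at most 0.191 CPM in IBA), *Fabp3*, another fatty acid binding protein (0.310 to 1.88 CPM against 15.3 to 23.5 CPM), and the droplet protein *Bscl2* (14.2 to 42.6 against 83.2 to 117 CPM) fell furthest. These 4 calls were lost without batch 9_1 (adjusted p of 0.0924, 0.183, 0.267 and 0.195 in this order), that of *Slc27a1* also without batch 8_8 (0.0687) and those of *Fabp3* (0.146) and *Bscl2* (0.0721) also without batch scRNA.

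With LPS, 2 of the 66 pathway genes were called in whole cells, both lower (3.03%, beside 1.28%). They were *Cpt1a*, which admits fatty acids to mitochondria (34.7 to 66.3 CPM in RAW_Mock, 3.54 to 9.05 CPM with LPS, log2 fold change −2.94, adjusted p = 0.0496, edgeR), and *Angptl4* (13.7 to 26.4 and 1.94 to 9.21 CPM, −2.12, adjusted p = 0.041, edgeR). Neither call remained when any 1 of the 3 batches was left out (adjusted p of 0.101 to 0.170 for *Cpt1a* and 0.0950 to 0.272 for *Angptl4*). After induction of ASPCs 0 of the 66 were called by edgeR and 4 had an unadjusted p under 0.05, beside 4.42% of all genes. *Pparg* was at 7.76 and 8.42 CPM in the ASPC_Post sums and 0.499 to 66.9 CPM over the ASPC_Pre sums. In the Live-seq comparisons 0 of the 66 were called by edgeR, and 3 or 4 had an unadjusted p under 0.05, beside 3.94% to 13.3% of all genes.

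Over the 12 whole-cell sums, *Fabp4* went with *Scd1*, and *Lpl* with *Acsl1*. Pearson's r of log2(CPM + 1) was 0.889 between *Fabp4* and *Scd1*, 0.878 between *Lpl* and *Acsl1* and 0.805 between *Scd1* and *Scd2*, and −0.834 between *Lpl* and *Plin2*. The sums share batches and cell types, and these values are descriptions. Of 13561 genes, the most like *Fabp4* were *Fam117a* (0.990), *Sema3e* and *Jak1*, the most like *Scd1* was *Tbx15* (0.979), and the most like *Fabp5* were *Rnaseh2b* (0.940) and *Cdk4* (0.939). For *Plin2* it was *Sap18* (0.922) and for *Fasn* *Sec24c* (0.895).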

How the data were processed

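Smart-seq2 libraries of Live-seq biopsies and whole cells were sequenced with 75-base reads. The authors aligned them with STAR 2.6.1c to mm10 (GRCm38) and deposited raw read counts per gene from HTSeq, for uniquely mapped reads without strand and without molecular identifiers, on Ensembl release 87 with EGFP and mCherry. Counts of 20 genes named by the study as negative-control genes, and of 89 for ribosomal proteins, were set aside, and a median of 75.8% of counts was kept. Intervals and floors on counts cover counting error only, and those on shares of cells cover the draw of cells only.

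Counts were summed per technique, state and batch (at least 3 cells), since cells of 1 sum are not replicates. A gene needed 2 or more counts in 15% or more of the whole cells of 1 state, which *Cd36* and *Adipoq* did not reach, and had to pass edgeR's filter on low counts. Genes were tested with edgeR 4.0.16 (quasi-likelihood, TMM, batch as a block, Benjamini-Hochberg over all genes tested) in R 4.3.3, and called at an adjusted p under 0.05 and an absolute log2 fold change over 1. DESeq2 1.42.0, no block, other filters, sums sampled down and sums left out were alternatives. Where separate cultures are not stated, p-values measure only the spread between sums. Batches shared in the labels pair the sums of RAW_Mock and RAW_LPS: their deviations correlated at 0.115, −0.0196, 0.0636 and 0.248 in Live-seq and 0.348, 0.248 and 0.430 in whole cells. The fits were tested on simulated data. The members and lists were chosen with earlier results of these data known. Named pathway genes were up to 3 called genes with the largest fold change in each direction, and *Pparg*. Cells highest in *Fabp4*, and genes given with them, were picked after their values were seen.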

Additional observations from a re-analysis of the deposited data

Results flagged for a closer look

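Of 16 groups of sums with enough batches to be tested, 7 held a sum far from the others by Dixon's criterion. Its rate of about 1 in 20 by chance holds for independent, normally spread values. The groups here share sums and some hold zeros, so the 7 cannot be read against that rate. The sum of batch 5Reseq is the only wild-type one among RAW-G9 sums. In Live-seq RAW_LPS these were *Acsl1* in batch 7 (223.7 CPM, the others 0 to 8.28), *Cd36* in wild-type batch 5Reseq (831.3 CPM, the others 0), *Fabp4* in batch 5Reseq (13.86 CPM, the others 0 to 2.415), *Scd1* in batch 5Reseq (55.27 CPM, the others 0.403 to 2.69) and *Scd2* in batch 6 (319.0 CPM, the others 113.9 to 172.5), where 1 of 4 cells held all counts. In Live-seq RAW_Mock they were *Fabp5* in batch 6 (541.5 CPM, the others 155.2 to 182.1) and *Scd2* in batch 7 (738.4 CPM, the others 96.54 to 200.04). The single wild-type RAW_Mock cell, which entered no comparison, had *Scd1* at 36.81 CPM.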

How the results depend on the processing

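Counts of the 8 tested lipid genes called by edgeR changed under these alternatives. After induction of ASPCs, 1 in place of 0 was called by the newer edgeR 4 fit (*Fabp4*, adjusted p = 0.0176), by DESeq2 (*Fabp5*, log2 fold change −4.24, adjusted p = 1.12e-05) and with sums of at least 5 cells (*Fabp5*, adjusted p = 0.0479). *Fabp4* there turned to −0.17 without the highest cell of each technique. Leaving out batches gave 2 to 6 calls between ASPC_Pre and RAW_Mock whole cells, the 6 without batch 8_8, where 5561 of all genes were called. In Live-seq, the newer edgeR 4 fit and DESeq2 each called 1 (*Scd1*). Cells sampled down to 50000 counts gave 1 call between IBA and ASPC_Pre whole cells (*Scd1*, −2.25, adjusted p = 0.0326) and 1 with LPS (*Plin2*, −1.37, adjusted p = 0.0420), where DESeq2 called 2 (*Fabp4* and *Plin2*). The cause of these changes was not tested.

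Without batch as a replicate block, 1 lipid gene was called between ASPC_Pre and RAW_Mock in Live-seq (*Scd1*, 7.47, adjusted p = 0.0469), and the block changed no other call of a lipid gene. Over all genes, calls without it went from 173 to 35 with LPS in whole cells, from 1483 to 964 for IBA, from 270 to 597 and from 3 to 11 in Live-seq for ASPC_Pre against RAW_Mock and IBA against ASPC_Pre. Leaving out batch 8_8 left 0 calls with LPS in whole cells and 1 between ASPC_Pre and RAW_Mock in Live-seq, and leaving out batch 9_1 left 43 for IBA whole cells. Across all alternatives other than batches left out, the highest counts were 125 after induction, 1437 and 6106 for ASPC_Pre against RAW_Mock (Live-seq and whole cells), 2659 and 274 for IBA (whole cells and Live-seq), 715 and 623 with LPS, 376 for its difference between techniques, and 813 between techniques, against 0 in batch 8_8 alone.

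Of 270 levels, 162 kept within their error when cells were averaged, and 82 without the cell with the most counts, an alternative chosen after seeing the data. Of 270 shares of cells, 32 moved when cells were sampled down. The few batches, and biopsies of few cells, limit what could be detected.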
